A study of Mus musculus with 8 samples.

Results

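Fgf21, Gdf15, Stc2, Vegfa and Il6 encode hormones, growth factors and cytokines that muscle cells secrete under stress or during contraction. They were taken as a set of 5 genes and looked up on Affymetrix mouse arrays through probe sets annotated with exactly 1 gene symbol. Of the 12393 genes with such a probe set, 4 were members of the set, on 6 probe sets: Fgf21 and Il6 had 1 each, and Stc2 and Vegfa had 2 each. Gdf15 had no probe set with a single symbol in the annotation used here and was not analysed. The RNA came from C2C12 myotubes, which form when this line of mouse myoblasts fuses at low serum. Cells were grown with 10% fetal bovine serum and moved to medium with 2% horse serum to differentiate. From day 4 controls continued to receive fresh medium every 48 h, while starved cultures went without it for 4 days, and RNA of both was taken on day 8. Each group had 4 arrays, controls A to D and starved E to H. The labels name no genetic change and no drug, and do not say whether the arrays of a group came from separate cultures, so p-values measure the spread between these arrays. In such RNA, fewer cells of a type and less RNA per cell cannot be told apart.

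FGF21 is an endocrine fibroblast growth factor that signals through FGF receptors together with the co-receptor beta-klotho (Klb). It is mostly a liver hormone of fasting, and muscle releases it under mitochondrial or amino acid stress, when the transcription factor ATF4 induces its gene. GDF15 is a stress cytokine read by the receptor GFRAL with its partner RET in the hindbrain. STC2 (stanniocalcin 2) is a secreted glycoprotein that blocks PAPP-A, the protease that cleaves IGF-binding protein 4 and so frees insulin-like growth factors. VEGFA drives blood vessel growth through the receptors KDR and FLT1 and is induced by hypoxia and by ATF4. IL-6 is a cytokine that muscle releases during contraction and that signals through IL6RA and gp130 (Il6st).

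The sequence just upstream of Fgf21 is shown first, because Fgf21 had the largest change of the members and because the motif in capitals is the one that ATF4 binds with C/EBP partners. The Il6 stretch is shown beside it, with a kappa B site in capitals, as the dimmest member. Both are 250 bases before the RefSeq start of the gene, read 5′ to 3′ on the gene's strand in build GRCm38.p6. Fgf21 lies at chr7:45613890-45615490 on the minus strand, and Il6 at chr5:30013114-30019975 on the plus strand.
Fgf21 upstream, chr7:45615491-45615740, minus strand: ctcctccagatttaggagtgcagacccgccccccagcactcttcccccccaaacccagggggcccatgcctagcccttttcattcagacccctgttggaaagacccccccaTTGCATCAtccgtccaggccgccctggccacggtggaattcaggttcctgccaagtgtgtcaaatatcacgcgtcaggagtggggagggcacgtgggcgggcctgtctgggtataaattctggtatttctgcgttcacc
Il6 upstream, chr5:30012864-30013113, plus strand: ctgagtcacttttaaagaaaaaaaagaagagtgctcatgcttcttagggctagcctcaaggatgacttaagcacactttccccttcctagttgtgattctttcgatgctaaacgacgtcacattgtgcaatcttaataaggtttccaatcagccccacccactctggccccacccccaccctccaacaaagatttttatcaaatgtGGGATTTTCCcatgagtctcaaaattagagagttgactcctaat

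The C/EBP-ATF motif was searched as TGATGNAA on both strands. It matched Fgf21 once, on the reverse strand, with its first base 139 bases before the start. The same windows of Stc2 (gene at chr11:31359441-31370061), Vegfa (chr17:46016993-46032377) and Il6 held 0 matches, and 3.45% of 32851 windows of this length in the RefSeq table held at least 1. The core of the hypoxia response element, ACGTG or GCGTG, matched Fgf21 (3 matches, of which the pair of ACGTG matches overlap on opposite strands) and Stc2 (2 matches), and Vegfa and Il6 held 0. At least 1 such core was in 38.6% of windows. A kappa B consensus match was found in Il6, 44 bases before the start. In Vegfa 1 position matched the consensus on both strands. At least 1 such match was in 7.25% of windows. These matches describe the letters in the windows and were not tested for binding. Vegfa had 2 windows, and only the one next to the gene start given above was read. Sequence outside the windows was not searched, so a count of 0 does not show that a gene lacks the motif.

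Starved myotubes had far more Fgf21 signal and moderately more Vegfa signal, while Stc2 did not pass the test and Il6 was too dim to be given it. Fgf21 rose 5.92-fold, and Vegfa rose 1.70-fold on each of its probe sets. Of the 5 probe sets bright enough to be tested, 3 passed an adjusted p of 0.05, all 3 of them higher in starved cells. Over all tested probe sets 10.6% passed, 4.37% as higher, and over all tested genes 11.2% passed, 355 higher and 580 lower. Without scaling between arrays 45 genes were higher and 1027 lower, and without starved F 226 were higher. The groups did not overlap for 4 of the 6 probe sets, where the share over all tested probe sets was 17.4%. In the deposited intensities, which had not been brought to a common brightness, only the Fgf21 groups were separate.

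Array facts set the frame for these values. The 2% trimmed mean intensity was 317 to 455 in controls and 243 to 366 in starved arrays, which is -0.38 on the log2 scale (two-sided exact permutation test, p = 0.0857). Values called normalized here are log2 of the intensity plus an offset of 10.9, quantile normalized over the 8 arrays. Fold changes are on that scale and understate changes of dim probe sets. Without scaling, the median log2 difference of all tested probe sets was -0.33, against 0.02 after quantile normalization. For Gapdh, whose control probe sets read the 3′ and the 5′ end of the transcript, the log2 ratio of the ends was 1.40 on control B and lay between -0.23 and -0.04 on all 7 other arrays. Myotube markers (Myog, Ckm, Acta1, Des and 5 others) were all tested, with mean signals above the 94th percentile of all probe sets. The summed normalized intensity of these 9 markers ran from 66791 to 69814 in controls and from 63657 to 66637 in starved arrays, and 1 of them, Des, passed as lower (fell by 0.22, adjusted p = 0.0153; 5 of 9 were lower at an unadjusted p under 0.05). The call of Des was lost with median or 75th percentile centring, without the brightness filter (adjusted p = 0.0704) and without control C (adjusted p = 0.0520), and its other probe set was at 0.12. Of the markers of macrophages, endothelial cells and adipocytes, respectively 4 of 6, 2 of 6 and 1 of 5 measured genes were bright enough to test, and 0 passed in limma's test (1, 0 and 0 at an unadjusted p under 0.05). Of fibroblast markers 2 of 6 tested genes were lower, Pdgfrb and Col1a1, and the other 4 did not pass. At an unadjusted p under 0.05 in limma, 1 was higher and 2 were lower. The median log2 difference of that list was 0.06, against 0.01 over all tested genes. Its summed level ran from 6878 to 7180 in controls and from 4907 to 6172 in starved arrays. Of myoblast and cycling markers 1 of 4 was lower, Cdk1, with sums of 752 to 884 and 479 to 656. The part of these cells in the results was not tested.

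**Figure D1:**
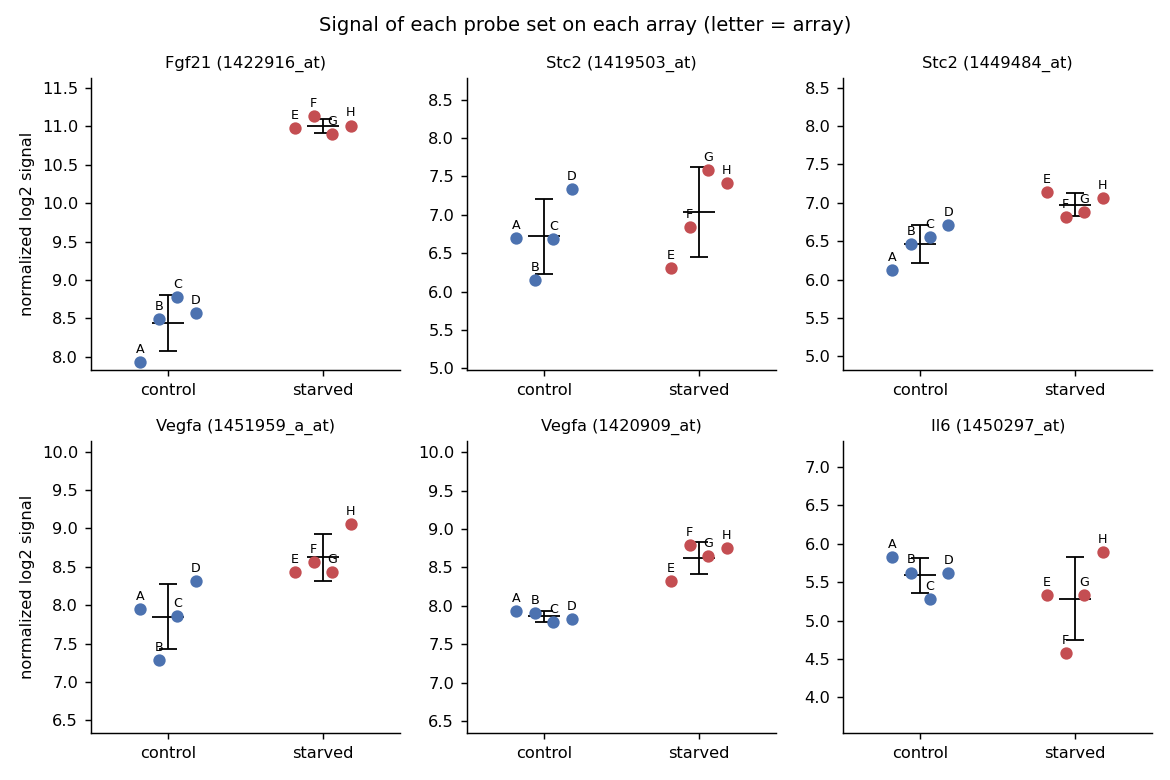
Normalized log2 signal (y axis) of the 6 probe sets in control and starved arrays. Points are single arrays with their letters, and bars are the mean and SD (n = 4 per group); every panel spans the same log2 range. Starved arrays lie above all controls for Fgf21, for both Vegfa probe sets and for Stc2 1449484_at, and the groups overlap for Stc2 1419503_at and for Il6.

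Fgf21 (probe set 1422916_at, designed on NM_020013) had deposited intensities of 332 in control A, 322 in B, 436 in C and 471 in D. They were 1502 in starved E, 1842 in F, 1767 in G and 2181 in H. The lowest starved array stood 3.19 times above the highest control. On the normalized log2 scale the control mean was 8.44 ± 0.36 (SD, n = 4) and the starved mean 11.01 ± 0.09 (SD, n = 4). Control A was the lowest control, at 7.93 against 8.50 to 8.78 in the others, and the starved arrays lay within 10.91 and 11.13. The difference was 2.57 ± 0.16 (SE), with a 95% interval of 2.22 to 2.91 (limma, adjusted p = 2.04e-06). This was rank 3 by rise among the 8352 genes tested. On each control array Fgf21 lay between the 62.7th and 76.5th percentile of all probe sets in brightness, and on each starved array between the 95.4th and 96.3rd. The difference was 2.20 in unscaled values and 2.57 without control B, and Fgf21 passed under every alternative run.

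Vegfa was read by a pair of probe sets of nearly equal brightness. Probe set 1420909_at (NM_009505) had deposited intensities of 331, 205, 213 and 273 in controls A to D. In starved E to H it had 224, 358, 336 and 479. Starved E lay within the range of the controls in these deposited values, so the groups overlapped. After normalization the controls were tightly grouped, from 7.78 to 7.93, and the starved arrays were all higher, from 8.33 to 8.79. Means were 7.86 ± 0.07 and 8.63 ± 0.21 (SD, n = 4 each), a difference of 0.76 ± 0.13 (SE; 95% interval 0.49 to 1.04; limma, adjusted p = 0.00249).

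The other Vegfa probe set, 1451959_a_at (U50279), had 336, 130, 223 and 394 in the controls, in the order A to D. Its starved arrays, in the order E to H, had 241, 304, 287 and 593. Control B was its dimmest array and starved H its brightest. The control spread was wide after normalization too, with means of 7.85 ± 0.43 and 8.62 ± 0.30 (SD, n = 4 each). The difference was again 0.77 ± 0.22 (SE), but closer to the threshold (95% interval 0.29 to 1.25; limma, adjusted p = 0.0451). The difference between the responses of these probe sets was 0.01, with p = 0.971 in a two-sided exact permutation test. The call of 1451959_a_at was lost when any 1 of 7 arrays was left out, control D being the exception (0.58 without control B, adjusted p = 0.0688). That of 1420909_at held without any 1 array. In unscaled values neither passed (0.41, adjusted p = 0.284, and 0.40, adjusted p = 0.371), although both stood 0.75 and 0.74 above the median of all tested probe sets there.

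Stc2, on a pair of probe sets made from the same accession (AF031035), was dim and gave no call. Probe set 1419503_at had deposited intensities of 137, 56.8, 93.4 and 184 in controls A to D. In starved E to H they were 47.4, 89.9, 155 and 187. The spread within each group was larger than the difference between them. Normalized means were 6.72 ± 0.48 and 7.03 ± 0.58 (SD, n = 4 each), a difference of 0.32 ± 0.32 (SE; 95% interval -0.38 to 1.01; limma, adjusted p = 0.604). That interval holds both no change and a doubling.

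Probe set 1449484_at of Stc2 had 89.1, 70.9, 85.0 and 112 in controls and 94.3, 88.7, 91.9 and 143 in starved arrays. After normalization all 4 starved arrays, from 6.82 to 7.14, lay above all 4 controls, from 6.12 to 6.71. Means were 6.46 ± 0.25 and 6.98 ± 0.15 (SD, n = 4 each), a difference of 0.51 ± 0.19 (SE; 95% interval 0.10 to 0.93) that did not pass over all probe sets (limma, adjusted p = 0.123). The control mean of this probe set lay below the brightness filter's limit of 6.61 and the starved mean above it. It was therefore bright enough to test only through its starved arrays, and in limma without the filter its adjusted p was 0.212. Its two-sided exact permutation p was 0.0286, the smallest that 70 labellings of 4 against 4 arrays can give. In unscaled values the difference was 0.19 on this probe set and -0.02 on 1419503_at, so the sign of the latter turned. The probe sets did not differ from each other in response beyond their spread (difference -0.20, exact permutation p = 0.686).

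Il6 (probe set 1450297_at, NM_031168) was below the brightness filter, whose limit was the 40th percentile of mean signal. Its deposited intensities were 70.3, 38.0, 31.4 and 42.0 in controls A to D. In starved E to H they were 19.8, 12.4, 26.4 and 48.8. On its arrays it lay between the 11.5th and 28.2nd percentile of all probe sets. In deposited intensity control A was the brightest array and starved F the dimmest, with starved H above controls B to D. After normalization starved H, at 5.90, also lay above control A, at 5.83. The normalized means were 5.59 ± 0.22 and 5.29 ± 0.54 (SD, n = 4 each), a difference of -0.30 (95% interval -0.94 to 0.34). It had p = 0.40 in a two-sided exact permutation test, and adjusted p = 0.668 in limma without the brightness filter. No detection calls were used, so whether this signal differs from background is not known.

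**Figure D2:**
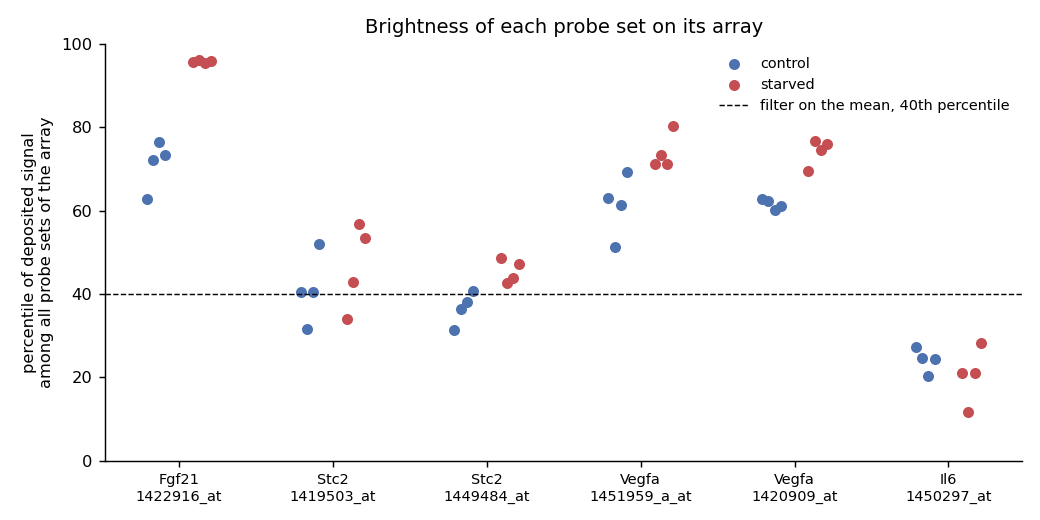
Percentile of the deposited signal among all probe sets of the same array (y axis) for the 6 probe sets, in control and starved arrays; the dashed line is the 40th percentile, the cut applied to mean normalized signals. Fgf21 moves from 62.7 to 76.5 in controls to above 95 in starved arrays, both Stc2 probe sets straddle the line, and Il6 stays at or below 28.2 on every array.

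The responses were set against each other within each array, where a common scaling cancels, over 6 pairs of genes. Each gene was read by its brightest probe set, 1420909_at for Vegfa and 1419503_at for Stc2. Their other probe sets were not compared with other genes. Fgf21 responded more than Vegfa by 1.80, and more than Stc2 by 2.25 on the log2 scale. Against Il6, whose signal is not known to differ from background, the differences were 2.87 for Fgf21 (2.64 to 3.03 with other offsets) and 1.06 for Vegfa (0.87 to 1.22). They measure no response of Il6 itself. These 4 pairs each had an adjusted p of 0.0429, from two-sided exact permutation tests with p = 0.0286, the smallest possible. All 4 missed the threshold when any 1 control array was left out, where differences kept their sign. The adjusted exact permutation p was then 0.0571 for the Fgf21 pairs and 0.0857 for Vegfa minus Il6. Before adjustment the Fgf21 pairs still had the smallest p possible with those arrays. Their adjusted p rose because Vegfa minus Il6 no longer had it. Stc2 and Vegfa differed by -0.45 and Stc2 and Il6 by 0.62, both with an adjusted exact permutation p of 0.20.

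**Figure D3:**
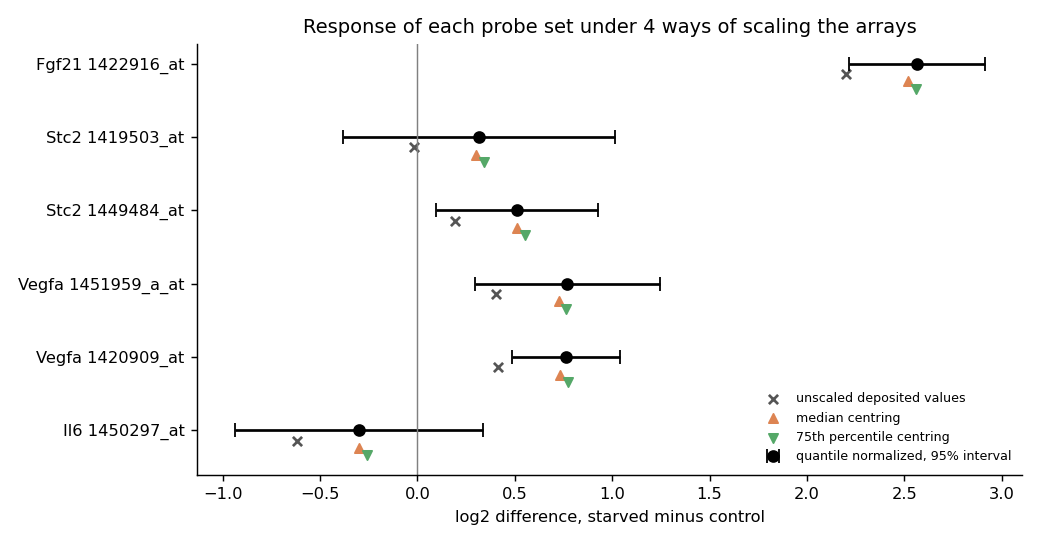
Log2 difference, starved minus control (x axis), of the 6 probe sets. Black points with bars are quantile normalized values with 95% intervals from limma (n = 4 per group), and the other marks are unscaled, median-centred and 75th-percentile-centred values. The Fgf21 difference is at least 2.20 in all 4, Vegfa falls to about 0.41 without scaling, and the intervals of Stc2 1419503_at and Il6 include 0.

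Genes were also ranked by Pearson correlation with the brightest probe set of each member over the 8 arrays, as a description. The points of a group share its condition. The closest to Fgf21 were the mitochondrial chaperone Hspd1 (r = 0.991), mitochondrial PEP carboxykinase Pck2 (r = 0.987), the LIM protein Fhl1 (r = 0.986) and the glycogen-binding protein Stbd1 (r = 0.985). Their own rises were 0.57, 2.27, 0.54 and 1.80. For deviations from the group means their correlations with Fgf21 were 0.73, 0.41, 0.61 and 0.44. The closest to Vegfa were the proline synthesis enzyme Aldh18a1 (r = 0.980), the stress pseudokinase Trib3 (r = 0.978), the mitochondrial protease Oma1 (r = 0.971) and again Stbd1 (r = 0.966). For deviations from the group means these correlated with Vegfa at 0.81, 0.91, 0.70 and 0.69. Of 8351 genes compared, 81 had r above 0.95 with Fgf21 and 16 with Vegfa, so the named genes were not alone. The nearest genes to Stc2 were Rnf4, Hnrnpr, Emc8 and Utp18 (r from 0.910 to 0.924) and to Il6 Dok2, Pltp, E2f5 and Slc25a47 (r from 0.930 to 0.958). None of these 8 passed the test between groups, and their adjusted p ran from 0.227 to 0.906. Their within-group correlations were as high, 0.906 to 0.924 for Stc2 and 0.919 to 0.983 for Il6. These are no separate check, because the genes were picked as the highest of 8351 (Stc2) or 8352 (Il6) on the same arrays. With little difference between groups, both correlations measure nearly the same thing. The Il6 signal is also not known to differ from background.

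Receptors and signal partners of the secreted factors were listed as 37 genes. This list, like those below, was chosen with earlier results of these arrays known, so its counts are not independent evidence. Of the 28 tested, 3 rose, 6 fell and 19 did not pass, with a median log2 difference of -0.10 against 0.01 over all tested genes, of which 4.25% rose and 6.94% fell. Among receptors for FGF21, Fgfr1 was at 0.59 (adjusted p = 0.440, with control B at 7.38 and the other controls at 9.53 to 9.63; 0.04 without control B), Fgfr2 at 0.18 and Fgfr4 at 0.24, and none of them passed. Fgfr3 fell by 0.88 (adjusted p = 0.0479), a call lost with median or 75th percentile centring, without the brightness filter (adjusted p = 0.0901) and without any 1 array other than starved H (adjusted p from 0.0644 to 0.121). The starved mean of Fgfr3, 6.28, lay below the filter's limit of 6.61, and its control mean, 7.16, above it. The co-receptor Klb was below the brightness filter, with a log2 difference of -0.12. Fgfrl1, an FGF receptor without a kinase domain, fell by 1.08 ± 0.10 (adjusted p = 3.41e-05), and the pathway inhibitor Spry1 fell by 0.59 ± 0.09 (adjusted p = 0.00111).

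For GDF15, Gfral had no probe set with a single symbol, and Ret stood at 0.05 (adjusted p = 0.857). Among receptors for VEGFA, Kdr (0.19), Flt1 (-0.04), Nrp2 (-0.07) and Nrp1 (-0.55, adjusted p = 0.0600) did not pass. Nrp1 passed as lower without starved H (-0.69, adjusted p = 0.0146) and in unscaled values (-0.90, adjusted p = 0.0313). For IL-6, the signalling subunit Il6st rose by 0.44 ± 0.10 (adjusted p = 0.0146). Its other tested probe sets, at 0.65 and 0.85, did not pass. The call of Il6st rests on the scaling, with 0.36 and adjusted p = 0.0735 under median centring and 0.04 in unscaled values. Il6ra was at -0.45 (adjusted p = 0.565), with starved H far below the other starved arrays. Lifr, the receptor for the related cytokine LIF, fell by 0.95 ± 0.21 (adjusted p = 0.0158). Its other tested probe set, at -0.45, did not pass. Starved H, at 8.17, lay above the other starved arrays (7.10 to 7.33) and near the lowest control (8.26).

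Around STC2, the binding proteins of insulin-like growth factors Igfbp4 and Igfbp2 had the largest changes among the tested genes of this list. Igfbp4, the substrate of the protease that STC2 blocks, fell by 2.19 ± 0.09 (adjusted p = 2.35e-07), and all 5 of its tested probe sets were called lower. Igfbp2 fell by 1.24 ± 0.16 (adjusted p = 0.000434), while Igfbp5 rose by 0.47 ± 0.08 (adjusted p = 0.00208), which unscaled values did not call (adjusted p = 0.325). The other tested probe set of Igfbp5, at 1.12, did not pass. The protease gene Pappa was below the brightness filter at -0.29, and Pappa2 had no probe set with a single symbol. The paralog Stc1 was at 0.22 (adjusted p = 0.478). Hmox1, the inducible heme oxygenase, rose by 1.13 ± 0.22 (adjusted p = 0.00728), a call that unscaled values did not give (adjusted p = 0.0690).

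Of 53 other factors that muscle cells secrete, 33 were tested, of which 3 rose and 10 fell. That is 39.4% against 11.2% of all tested genes, and the median log2 difference of the list was 0.08. This list too was chosen with earlier results of these arrays known, so its share is not independent evidence. The growth factor Igf2 rose by 1.67 ± 0.09 (adjusted p = 5.71e-07) and the proteoglycan Dcn by 0.94 ± 0.14 (adjusted p = 0.00147; not passing in unscaled values, adjusted p = 0.0924). Vegfb, a relative of Vegfa, rose by 0.43 ± 0.11 (adjusted p = 0.0348). Its call was lost with median centring (adjusted p = 0.0733), in unscaled values (0.06, adjusted p = 0.877) and without any 1 array other than starved E (adjusted p from 0.0507 to 0.101). The 4 largest falls were in the activin subunit Inhba (fell by 2.01 ± 0.31), the IL-6 family cytokine Lif (fell by 1.64 ± 0.27), Fstl1 (fell by 1.41 ± 0.09) and the activin antagonist follistatin, Fst (fell by 1.24 ± 0.14), with adjusted p from 3.10e-06 to 0.00271. Lif was bright enough to test only through its controls (mean 7.78). Its starved mean, 6.14, lay below the brightness filter's limit of 6.61. In limma without the filter its adjusted p was 0.00685.

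The pathways known to induce the members were counted too. In the list of integrated stress response regulators and targets, which holds known inducers of Fgf21 and Vegfa, 20 of 27 tested genes rose and 0 fell in limma's test (1 lower at an unadjusted p under 0.05), with a median of 0.997. The list was chosen with earlier results of these arrays known, so its direction is not independent evidence. The largest rises among its tested genes were in Trib3 (2.72), the folate enzyme Mthfd2 (2.35), Pck2 (2.27) and asparagine synthetase Asns (2.26). The transcription factor Atf3, named after its values were seen, was below the brightness filter, with deposited intensities of 15.3 to 47.3 in controls and 145 to 254 in starved arrays, a log2 difference of 2.84 (limma without the filter, adjusted p = 0.000122). In the hypoxia response list 0 of 24 tested genes rose and 3 fell in limma's test, 12.5% passing against 11.2% of all genes. At an unadjusted p under 0.05 in that test, 0 were higher and 5 were lower. The 3 that passed were the collagen hydroxylase P4ha2 (fell by 0.74), the clock-linked repressor Bhlhe40 (fell by 0.70) and Pdk1 (fell by 1.35, adjusted p = 0.0487). The call of Pdk1 was lost with median or 75th percentile centring, without the brightness filter (adjusted p = 0.0874) and without any 1 array other than starved G (adjusted p from 0.0626 to 0.130). In unscaled values 7 genes of this list were lower.

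In the inflammatory list around Il6, 16 of the 36 genes with a probe set were too dim to be tested, as Il6 was. Of the 20 tested, 2 rose and 1 fell, 15% against 11.2% of all genes. At an unadjusted p under 0.05 in limma, 5 were higher and 1 was lower. The adhesion molecule Vcam1 rose by 0.93 ± 0.13 (adjusted p = 0.000779) and the transcription factor Jun by 0.57 ± 0.13 (adjusted p = 0.0153), while the cytokine Il1b fell by 0.69 ± 0.14 (adjusted p = 0.00937). In unscaled values Vcam1 and Jun did not pass (adjusted p = 0.129 and 0.580). For Jun, control B was at 9.30 and the other controls at 9.80 to 9.90, with the starved arrays at 10.24 to 10.32.

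**Figure D4:**
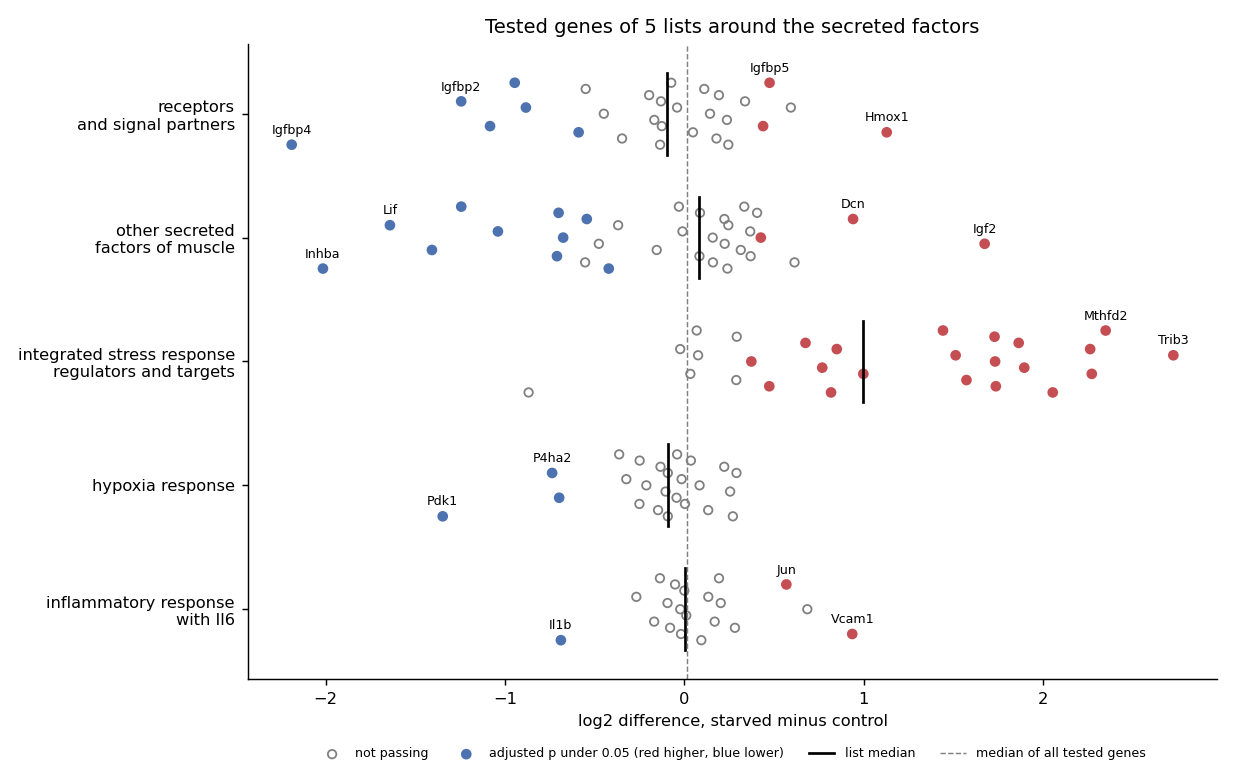
Log2 difference, starved minus control (x axis), of every tested gene in 5 lists around the secreted factors. Filled points passed an adjusted p of 0.05 in limma, red when higher and blue when lower, open points did not, black bars are list medians and the dashed line is the median of all tested genes (0.01). The stress response list lies to the right with a median of 0.997, and the medians of the other lists run from -0.10 to 0.08.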

How the data were processed

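The deposited table gives each probe set 1 linear intensity per array. How the authors made these intensities from the scans: not stated in these sources. All 8 columns were used. To each value 10.9 was added, the 10th percentile of the table, log2 was taken and arrays quantile normalized, since trimmed means differed from their median by up to 38.0%. The 64 control probe sets were left out. Those whose mean exceeded the 40th percentile were tested, 13575 of 22626, with limma 3.58.1 in R 4.3.3 (eBayes with an intensity trend, n = 4 per group), with Benjamini-Hochberg adjustment over all of them; errors of differences are limma's standard errors. A gene is its brightest tested probe set with 1 symbol (8352 genes). Probe sets were named by the 2016 platform annotation, with 20351 of 20380 single symbols matched to RefSeq GRCm38.p6.

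Single values had two-sided exact permutation tests over 70 labellings. All members' probe sets are named, with up to 4 called genes per direction in each of 5 lists, the receptors and the 4 genes most like each member. Members and lists were chosen with earlier results of these data known. Alternatives were other scalings, offsets, filters, eBayes settings, array weights, probe set means and leaving out each array. The procedure was tested on simulated data. Upstream sequences are from RefSeq, build GRCm38.p6. The number of arrays limits the precision. Figures used matplotlib 3.10.9.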

Additional observations from a re-analysis of the deposited data

Results flagged for a closer look

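Of 122 checks of 4 arrays each, over the named genes and array measures, 9 had an array whose gap to the nearest other, divided by the group's range, was above Dixon's 95% critical value. Chance alone gives about 1 in 20 such checks. No probe set of Fgf21, Stc2, Vegfa or Il6 was among them.

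Control B stood apart for the 3′ to 5′ log2 ratio of Gapdh (1.40 against at most -0.12 in the other controls; gap ratio 0.944), for the FGF receptor Fgfr1 (7.38 against 9.53 to 9.63; 0.953) and for the transcription factor Jun (9.30 against 9.80 to 9.90; 0.835). The part of RNA quality in these values was not tested. Among other controls, Fgfr2 was high in control C (8.19 against at most 7.70; 0.845), the FGF21 co-receptor Klb was low in control D (5.38 against 6.93 to 7.19; 0.859), and so was Fgfrl1 (11.31 against 11.57 to 11.62; 0.852). Among starved arrays, Fgfr2 was low in starved F (7.62 against 8.06 to 8.12; 0.875), Il6ra was low in starved H (6.31 against 8.27 to 8.53; 0.880) and Bhlhe40 was low in starved E (9.36 against 9.66 to 9.69; 0.900).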

How the results depend on the processing

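Over 19 alternatives, 366 of 408 recomputed values kept their direction and side of the threshold, or a count within 1.5 times. In unscaled values Stc2 1419503_at reversed to -0.018, and the Vegfa calls were lost (1420909_at 0.41, 1451959_a_at 0.40). There the higher counts were 0 of the receptors, 1 of the other secreted factors and 0 of the inflammatory genes, the lower counts 1 in the stress response list and 7 in the hypoxia list, and over all genes 45 rose and 1027 fell (355 and 580 in the values reported). Vegfa 1451959_a_at also lost its call with median centring (0.72), 75th percentile centring (0.76), no brightness filter (0.77), no intensity trend (0.77) and array weights (0.62). Without a filter 4 inflammatory genes were higher. With median centring 219 genes were higher over all. The causes were not tested.

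Leaving out each array in turn gave 0.58 to 0.92 for Vegfa 1451959_a_at and 226 to 370 genes higher over all, the lowest without starved F. It gave 0 to 1 stress response genes lower, 2.01 to 2.45 for Fgf21 minus Stc2, 1.62 to 1.94 for Fgf21 minus Vegfa, 2.59 to 3.08 for Fgf21 minus Il6 and 0.78 to 1.23 for Vegfa minus Il6. Without any 1 control the adjusted exact permutation p was 0.0571 for the Fgf21 pairs and 0.0857 for Vegfa minus Il6. Without any 1 starved array it stayed at 0.0429 for these 4 pairs. Neither Stc2 probe set could be tested with a filter at the 60th percentile. No paired analysis was possible because the arrays carry different letters in the 2 groups.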
